A study of Mus musculus with 10 samples.

Results

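Marker genes of neutrophils, monocytes and macrophages were followed in CD4+CD25+ T cells of lymph nodes, which include the regulatory T cells, from mice that carry or lack the tyrosine phosphatase SHP-1 (gene Ptpn6). The genes were chosen by name: 42 genes were listed, the annotation of the array named 39 of them, and 1 probe set per gene, the brightest of the 52 that name these genes, was used out of 45037 tested. Retnlg, Fpr1 and Cebpe were not analysed here. The arrays came from BALB/c mice aged 17 to 19 days, 3 homozygous for the SHP-1 knockout with the motheaten phenotype (me), 3 heterozygous (he) and 4 wild type (WT). Each array is labelled as a biological replicate, without saying that each is a separate mouse. The p-values measure the spread between these samples, which may be technical in part. By the sex genes given below, the me and the WT arrays each came from more than 1 mouse. Cells were taken with a regulatory T cell isolation kit and not cultured, and their RNA was amplified before labelling. The labels give the knockout for the mouse and name no promoter or cell type that would limit it to T cells.

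Neutrophils store antimicrobial proteins and proteases in granules that are filled in order as the cell matures, while monocytes and macrophages carry Fc receptors, scavenger receptors and lysosomal enzymes. The transcription factors PU.1 (Spi1) and the C/EBP family drive both lineages. SHP-1 dampens signals of cytokine and Fc receptors in these cells, and motheaten mice are known for an excess of neutrophils and macrophages in their tissues. None of these genes is used to define a T cell. In bulk RNA, fewer cells of a type and less RNA per cell cannot be told apart.

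Values are log2(intensity + 32) after quantile normalisation, and each difference between genotypes is on that scale. The lowest deposited intensities were 72.41 to 81.46, well above 0. Differences of dim genes thus understate the change in RNA where the difference in signal comes from the gene's own transcript. For genes at background, defined next, a difference need not come from that transcript. A background level was set on each array as the 95th percentile over 78 probe sets of olfactory and vomeronasal receptors, genes not known to be used by lymph node cells. It was 7.58 to 8.18 on me, 7.54 to 7.99 on he and 7.55 to 8.04 on WT arrays. Further facts of the arrays touch every result. The arrays form 2 sets by correlation that cut across genotype, set A with me 1, me 3, he 1, WT 1 and WT 2, and set B with me 2, he 2, he 3, WT 3 and WT 4; correlation was 0.970 to 0.996 within and 0.854 to 0.944 between sets. The background level was 7.54 to 7.64 in set A and 7.93 to 8.18 in set B. The Gapdh control ratio (3' over 5' probe sets), which depends on RNA integrity and amplification, was 9.92 to 13.8 on me, 7.88 to 9.71 on he and 7.84 to 9.53 on WT arrays. The cre control, a transcript spiked in before hybridisation, had an intensity of 11503, 6100.6 and 7293.8 on me 1, me 2 and me 3, below every other array of the same set. Within each set the background level was also highest on me arrays. In set A it was 7.58 and 7.64 on me 1 and me 3, against 7.54 to 7.56 on he 1, WT 1 and WT 2. In set B it was 8.18 on me 2, against 7.93 to 8.04 on he 2, he 3, WT 3 and WT 4. The Gapdh ratio, the cre control and the background level thus moved with the me genotype. Their part in the results below was not tested. By the levels of Eif2s3y and Xist, 2 of 3 me, 0 of 3 he and 2 of 4 WT arrays came from male mice, so sex differs in part with genotype, above all between me and he, where its part was not tested. Ptpn6 followed the labels, with 8.84, 9.08 and 9.05 on me arrays, 9.30, 9.33 and 9.54 on he arrays and 9.55, 9.63, 9.83 and 9.81 on WT arrays at its brighter probe set. T cell markers were above background on every array for 8 of 8 measured genes, Cd3e and Cd4 among them, as were 5 of 5 genes of the regulatory T cell list, with Foxp3 averaging 11.14 on me arrays.

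Of these markers, the 2 with the smallest unadjusted p between me and WT encode the subunits of calprotectin, S100a8 and S100a9, which neutrophils hold in their cytosol in large amounts. The stretches of genome just upstream of their starts are given here because both genes had higher means in me cells, in RefSeq sequence of build GRCm38.p6. The S100a8 stretch is chr3:90668821-90669070 on the + strand, and the S100a9 stretch is chr3:90695722-90695971 on the - strand, each 250 bases that end at the base before the gene's start. Capitals mark matches on either strand to TTNNGNAA, a core of the C/EBP site, and to GAGGAA, a core of the PU.1 site; no 2 matches overlap.
S100a8: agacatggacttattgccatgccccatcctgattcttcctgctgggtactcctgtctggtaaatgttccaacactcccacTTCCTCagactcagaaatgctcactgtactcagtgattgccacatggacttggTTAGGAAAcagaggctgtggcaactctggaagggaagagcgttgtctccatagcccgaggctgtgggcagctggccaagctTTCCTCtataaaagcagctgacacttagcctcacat
S100a9: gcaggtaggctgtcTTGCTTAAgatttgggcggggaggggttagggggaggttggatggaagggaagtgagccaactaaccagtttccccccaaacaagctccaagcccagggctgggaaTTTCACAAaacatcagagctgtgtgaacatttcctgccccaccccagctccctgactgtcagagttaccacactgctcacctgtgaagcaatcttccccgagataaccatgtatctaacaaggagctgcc
The S100a8 stretch held 1 match to the C/EBP core, at -117 to -110 from the start, and 2 to the PU.1 core, at -170 to -165 and -36 to -31. The S100a9 stretch held 2 matches to the C/EBP core, at -236 to -229 and -130 to -123, and 0 to the PU.1 core. Of 32851 promoter windows cut in the same way, 36.8% held the C/EBP core and 23.3% the PU.1 core, so such matches are common. The same stretches of Ly86 and Cebpa, described below, held 0 matches to either core.

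Most of the marker genes lay at or near background in every genotype. Of 39 genes, 5 were above the background level on all 10 arrays, 12 on no array and 22 on some. By genotype, 7 genes were above it on every me array, 6 on every he array and 7 on every WT array. Those above on all arrays were Ngp, Fcer1g, Tyrobp, Csf1r and Mpeg1. Those above on none included Cd68, a lysosomal protein of macrophages, Cd14, the co-receptor for bacterial endotoxin, Mrc1 (the mannose receptor), Marco (a scavenger receptor) and Apoe (the lipid carrier). The neutrophil genes Lcn2 (lipocalin 2), Ctsg (cathepsin G), Mmp8 (neutrophil collagenase), Cxcr2 (a chemokine receptor) and Cd177 were also above on none. Spi1, the factor both lineages need, was above on 1 me, 0 he and 1 WT array. The defining markers of both lineages were thus mostly at or near background, and the genes are described by their names.

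**Figure D1:**
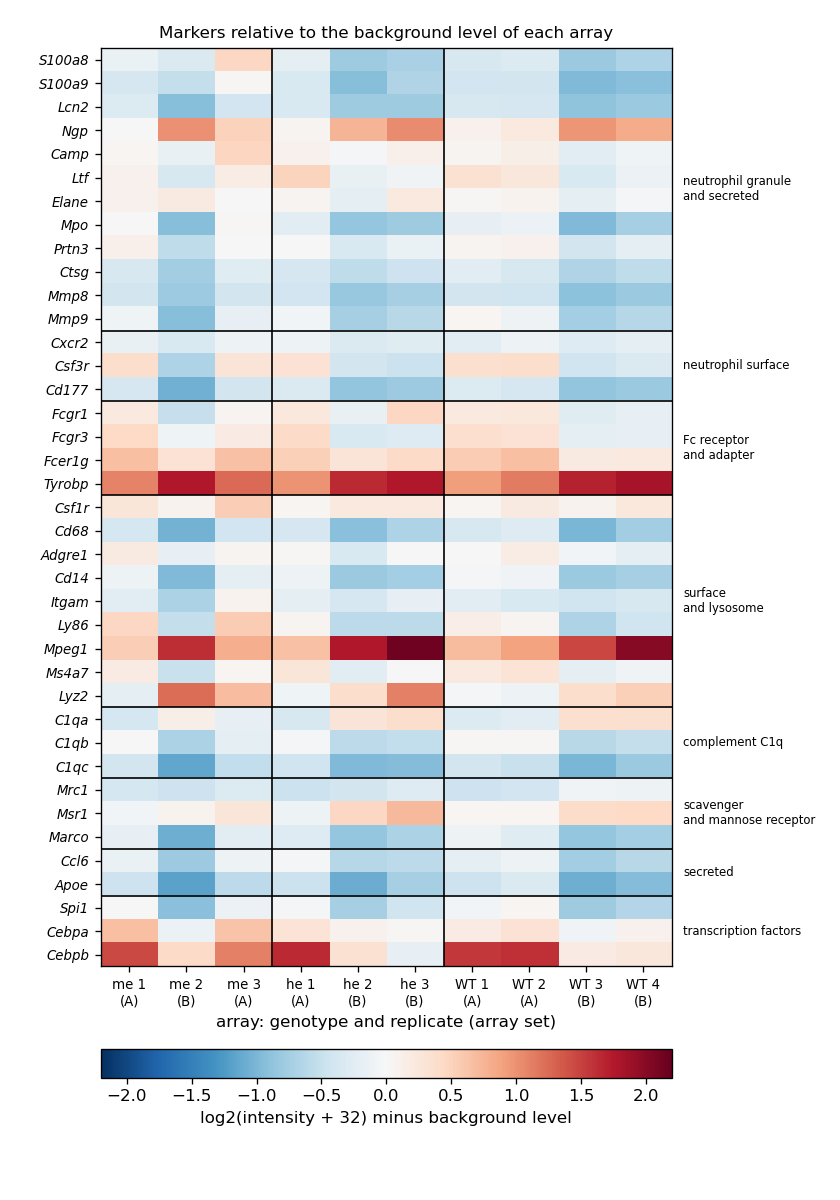
Each cell is the log2(intensity + 32) of a gene (rows, in order of role) on an array (columns, me, he and WT, with the array set in brackets) minus the background level of that array. Red is above and blue below background; 5 genes are red on all 10 arrays and 12 are blue on all 10.

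No marker gene passed in any comparison. In limma with Benjamini-Hochberg adjustment over 45037 probe sets, 0 of 39 were called for me against WT, where 0% of all probe sets were called, 0 for he against WT (0% of all) and 0 for me against he (0% of all). At an unadjusted p under 0.05, 4 of 39 were higher in me than in WT, namely S100a8, S100a9, Ly86 and Cebpa, against 0.331% of all probe sets, and 0 were lower, against 0.295%. Without me 3 the count was 2. Between he and WT 0 were higher or lower at this level, against 0.133% and 0.164% of all probe sets. Between me and he 4 were higher, S100a8, S100a9, Mpo and Ly86, against 0.444%, and 0 lower, against 0.224%. Ptpn6 itself was lower on every me than on every WT array at both its probe sets, and it was not called between them either. The absence of calls thus does not show that the marker genes are equal between genotypes.

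Most differences between me and WT were small and positive. The mean was higher in me for 30 of 39 genes, where 49.9% of all probe sets were, and the median difference was 0.03 over the genes and -0.00022 over all probe sets. It was higher for 10 of 12 granule and secreted proteins of neutrophils (median 0.11), 3 of 3 neutrophil surface genes (median 0.03), 14 of 21 macrophage and monocyte genes (median 0.01) and 3 of 3 transcription factors (median 0.13). When array set was a block these were 10 of 12 (median 0.16), 1 of 3 (median -0.01), 16 of 21 (median 0.02) and 2 of 3 (median 0.0036), so the surface genes and the transcription factors do not keep their pattern. The summed level of the 39 genes, in intensity after normalisation, was 6823 to 9369 on me and 6473 to 9040 on he arrays. On WT arrays it was 6507 to 8271, and these ranges overlap over both sets. In set A it was 6823 and 7547 on me 1 and me 3, against 6473 on he 1. WT 1 and WT 2 had 6507 and 6809. In set B it was 9369 on me 2, against 8056.5 and 9040 on he 2 and he 3. WT 3 and WT 4 had 8129 and 8271. Every me array was thus above every other array of its own set, me 1 only narrowly above WT 2. For he against WT, 25 of 39 were higher, where 46% of all probe sets were, with a median of 0.03. Without he 3 only 11 of 39 were higher in he. For me against he, 27 of 39 were higher, where 54.1% of all probe sets were. The he and me comparisons share the WT arrays.

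With array set as a block, 10 of 39 genes were higher in me than in WT at an unadjusted p under 0.05, where 1.64% of all probe sets were, and 0 were lower, where 2.67% were. These were S100a8, S100a9, Mpo, Mmp8, Fcer1g, Tyrobp, Csf1r, Ly86, Lyz2 and Cebpa. None of them passed after adjustment; 3 of 45037 probe sets did (0.00666%). Among set A arrays me 3 was the closest to set B, and with me 3 counted in set B the number was 5. Leaving out 1 array at a time gave 7 to 12; S100a8, S100a9, Ly86 and Cebpa, 4 of the 10, stayed under 0.05 in each of these fits, while Mpo, Mmp8, Fcer1g, Tyrobp, Csf1r and Lyz2 did not. The lowest adjusted p among them was that of S100a8 without me 1, at 0.0727 in limma. S100a9 stayed under 0.05 only narrowly, with a largest unadjusted p of 0.0496 in these limma fits, without me 2. The largest was 0.0302 for Cebpa, 0.0197 for S100a8 and 0.00276 for Ly86. In he the same fit had 0 genes higher than in WT, where 0.806% of all probe sets were, and 0 lower, where 1.33% were. For me against he it had 7 higher, where 1.69% were, and 1 lower (Ltf), where 1.53% were. The sign of the blocked difference was positive for 29 of 39 genes in me against WT (46.3% of all probe sets), 22 in he against WT (48.9%) and 28 in me against he (47.2%).

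Groups were also set against each other within array sets. Every me array was above the WT mean of its own set for 14 of 39 genes, where 12.3% of all probe sets were, and below it for 2 (Mmp9 and Ms4a7), where 20% were. Every he array was above the WT mean of its own set for 6 genes, where 10.4% were, and below it for 7, where 14.4% were. Every me array was above the he mean of its own set for 16 genes, where 13.7% were, and below it for 2 (Ltf and Ms4a7), where 17.6% were.

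**Figure D2:**
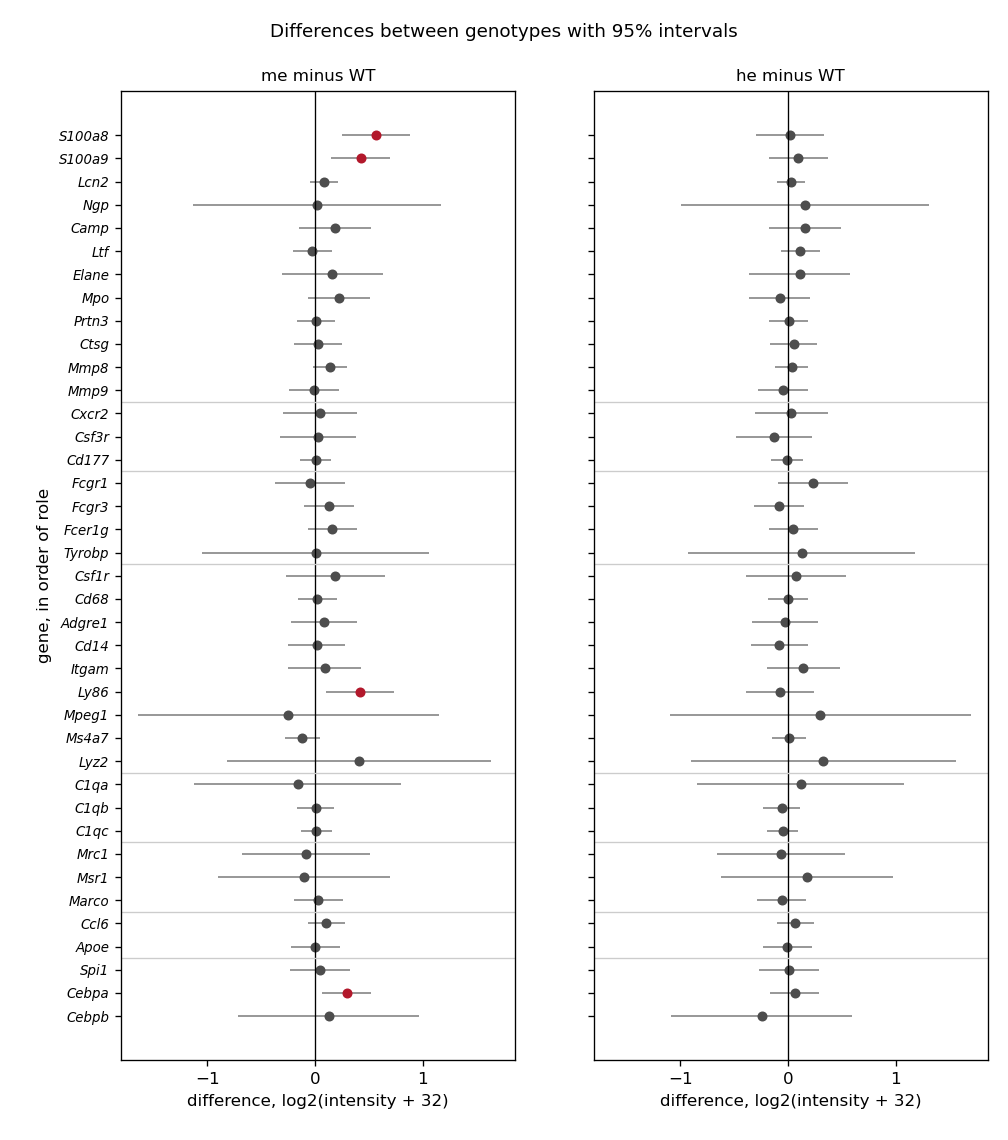
Points are the differences of group means on the log2(intensity + 32) scale, me minus WT on the left and he minus WT on the right, for each gene in order of role, and bars are 95% intervals of the fit without a block. Red points have an unadjusted p under 0.05, which holds for S100a8, S100a9, Ly86 and Cebpa in me and for no gene in he. The widest intervals belong to genes whose level followed the array set, such as Mpeg1, Lyz2 and Ngp.

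Among neutrophil granule and secreted proteins, the calprotectin subunits had the largest positive differences between me and WT. S100a8 had 7.43, 7.87 and 8.10 on me arrays, 7.32, 7.21 and 7.24 on he arrays, and 7.20, 7.26, 7.23 and 7.25 on WT arrays. Every me array was above every he and WT array, and me 3 alone exceeded its background level. Between me and WT the difference was 0.56 ± 0.14 (SE; n = 3 and 4), with an adjusted p of 1 in limma and a 2-sided exact permutation p of 0.0571, the smallest these group sizes give. Within set A it was 0.53 and within set B 0.63, and it ran from 0.42 without me 3 to 0.75 without me 1. Since most arrays lay below background the size depends on the offset added before the log, with 0.67 at an offset of 1 and 0.38 at the larger offset tried, and no fold is given. Between male arrays of me and WT S100a8 differed by 0.39, and between female arrays, with 1 me array, by 0.89. Against he it was 0.54 ± 0.14, and he minus WT was 0.02 ± 0.14.

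S100a9 had a smaller difference than S100a8. It had 7.22, 7.66 and 7.66 on me arrays, 7.21, 7.06 and 7.29 on he arrays, and 7.13, 7.16, 7.06 and 7.01 on WT arrays. The me arrays lay above all WT arrays, but me 1 lay below he 3. In me it exceeded WT by 0.42 ± 0.12 (adjusted p = 1 in limma), or 0.29 in set A and 0.62 in set B. Only me 3 exceeded its background level at S100a9, by 0.02. The S100a9 difference was 0.52 at an offset of 1 and 0.27 at the larger offset tried. For both genes me 1, an array of set A, was the me array nearest to WT.

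The other granule proteins of neutrophils had smaller differences from WT. Mpo, the peroxidase of primary granules, had 7.57, 7.25 and 7.66 on me arrays, 7.28, 7.14 and 7.16 on he arrays, and 7.38, 7.44, 7.07 and 7.20 on WT arrays. The me and WT arrays overlapped over both sets, but each me array exceeded every WT array of its own set, by 0.21 on average in set A and 0.11 in set B. Only me 3 exceeded its background level. The Mpo difference was 0.22 ± 0.12, but 0.14 without me 3 and 0.34 without me 2. Mmp8 had 7.18, 7.39 and 7.24 on me arrays, 7.12, 7.16 and 7.22 on he arrays, and 7.15, 7.13, 7.13 and 7.12 on WT arrays, all at background. Its difference from WT was 0.14 ± 0.07, with no overlap between me and WT arrays, and 0.07 without me 2, the highest array. Lcn2, a siderophore-binding protein of secondary granules, had 7.27, 7.26 and 7.21 on me arrays, 7.21, 7.21 and 7.17 on he arrays, and 7.21, 7.20, 7.14 and 7.12 on WT arrays. These were all at background, me and WT did not overlap by a narrow margin, and the difference was 0.08 ± 0.05.

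Ngp and Elane were above background on every me array. Ngp, a secondary granule protein, had 7.59, 9.18 and 8.15 on me arrays, 7.60, 8.74 and 8.99 on he arrays, and 7.64, 7.78, 9.01 and 8.74 on WT arrays. The high arrays were those of set B in every genotype. The me minus WT difference was 0.02 ± 0.50, with a 95% interval of -1.12 to 1.16, and 0.22 ± 0.13 when array set was a block. Elane, the elastase of primary granules, had 7.67, 8.38 and 7.65 on me arrays, 7.59, 7.78 and 8.16 on he arrays, and 7.58, 7.64, 7.84 and 7.89 on WT arrays. The highest value was me 2, and the genotypes overlapped. Elane was above background on 3 of 3 me, 2 of 3 he and 2 of 4 WT arrays, by margins near 0 on some. Relative to the background level of the array, Elane was at 0.0056 on me 3, 0.02 on WT 1 and -0.04 on WT 4. Ngp was at 0.01 on me 1. Camp (cathelicidin), Ltf (lactoferrin), Prtn3 (proteinase 3), Ctsg and Mmp9 (gelatinase B) differed from WT by 0.19, -0.03, 0.01, 0.02 and -0.01 in me. Ltf was lower on every me array than on every he array, with a difference of -0.14 ± 0.08 that did not pass.

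The 3 measured neutrophil surface genes had small differences between genotypes. Csf3r, the receptor of the growth factor G-CSF, differed between me and WT by 0.03 ± 0.15, Cxcr2 by 0.04 ± 0.15 and Cd177 by 0.01 ± 0.06. The 95% interval of the Cd177 difference was -0.13 to 0.14, and that of Csf3r was -0.32 to 0.37. Between he and WT they differed by -0.13, 0.03 and -0.01. Cxcr2 and Cd177 were above background on no array and Csf3r on 5 arrays, all of set A.

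**Figure D3:**
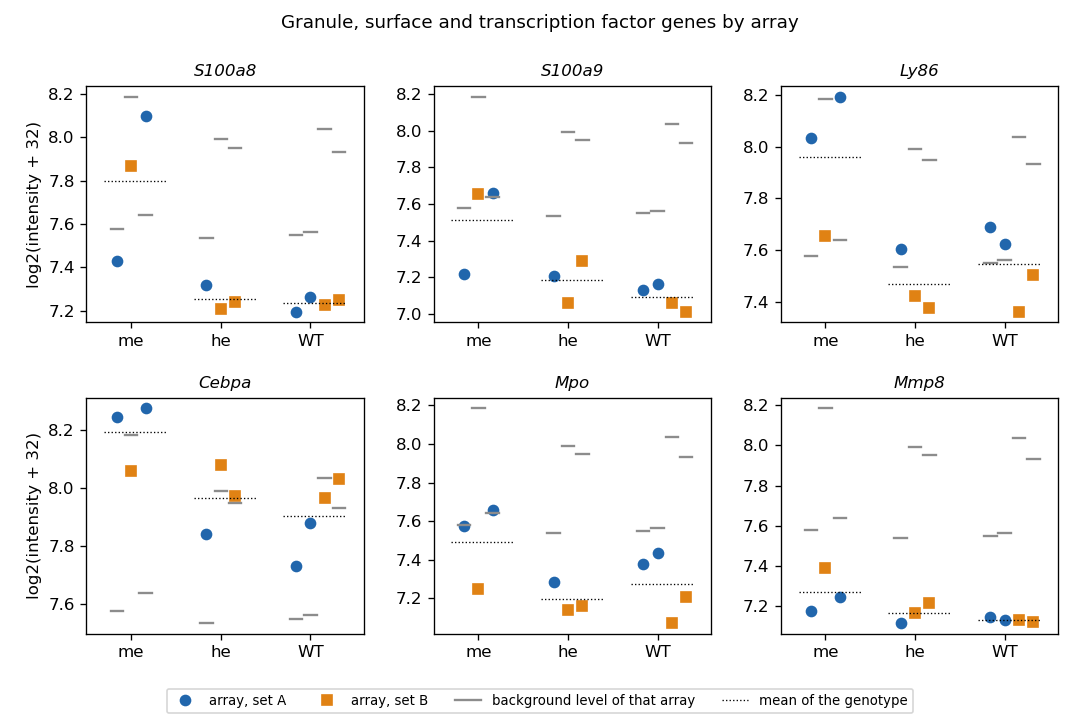
Each point is 1 array, with log2(intensity + 32) on the vertical axis and me, he and WT from left to right; circles are set A and squares set B, grey ticks are the background level of that array, and dotted lines are genotype means. For S100a8 all 3 me arrays lie above all he and WT arrays. For S100a8 and S100a9 me 3 is the only array that reaches its grey tick, narrowly for S100a9.

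Ly86 had the smallest p among macrophage and monocyte genes. It encodes MD-1, a partner of the Toll-like receptor homologue RP105 that B cells carry as well as macrophages. Ly86 had 8.03, 7.65 and 8.19 on me arrays, 7.60, 7.42 and 7.38 on he arrays, and 7.69, 7.62, 7.36 and 7.50 on WT arrays. Every me array was above every he array, and me 2 lay just below WT 1. The me minus WT difference was 0.42 ± 0.14 (adjusted p = 1 in limma), and me minus he was 0.49 ± 0.15. When array set was a block it was 0.37 ± 0.07 (unadjusted p = 0.000619, adjusted p = 0.629), with 0.46 in set A and 0.22 in set B.

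Ly86 is not specific to myeloid cells, so the B cell list is given beside it. Of 9 measured B cell markers 5 had a higher mean in me than in WT, or 6 when array set was a block, with 0 called. Of these 9 markers 1 was above background on all arrays. Their summed level, in intensity after normalisation, was 1557 to 2027 on me, 1444 to 1849 on he and 1420 to 1988 on WT arrays, ranges that overlap. Ms4a1 (CD20) differed by 0.46 ± 0.18 between me and WT. Of the plasma cell list 6 of 6 genes had a higher mean in me, or 4 of 6 when array set was a block, with 0 called. Jchain (the joining chain of antibodies) had 9.82, 7.96 and 10.14 on me arrays and 7.03 to 7.21 on he and WT arrays. The summed plasma cell level was 3349 to 5334 on me, 3056 to 4182 on he and 3300 to 4245 on WT arrays. The part of these cells in the Ly86 difference was not tested.

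Of the 4 Fc receptor and adapter genes, Tyrobp and Fcer1g were above background on every array. Tyrobp encodes DAP12, an adapter with an activation motif that pairs with receptors of myeloid and natural killer cells. It had 8.67, 9.94 and 8.88 on me arrays, 8.52, 9.63 and 9.72 on he arrays, and 8.47, 8.70, 9.73 and 9.74 on WT arrays. Set B was higher by 1.10 on average, and within each set every me array was above every he and WT array except that me 1 lay just below WT 2. The me minus WT difference was 0.01 ± 0.46 without a block and 0.20 ± 0.07 when array set was one (unadjusted p = 0.0216, adjusted p = 0.989). Without me 2 the unblocked difference was -0.39.

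Fcer1g, the shared gamma chain of Fc receptors, had 8.23, 8.51 and 8.28 on me arrays, 8.05, 8.27 and 8.37 on he arrays, and 8.12, 8.23, 8.24 and 8.14 on WT arrays. Its me minus WT difference was 0.16 ± 0.10, or 0.18 ± 0.07 with the block, and 0.08 without me 2. Fcgr3, a low-affinity IgG receptor, differed by 0.13 ± 0.10, and Fcgr1, the high-affinity IgG receptor, by -0.05 ± 0.14. In he Fcgr1 differed from WT by 0.24 ± 0.14, with he 3 at 8.41 against 7.68 to 7.82 on the other 9 arrays.

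Csf1r, the receptor of the macrophage growth factor, had 7.85, 8.26 and 8.17 on me arrays, 7.58, 8.21 and 8.17 on he arrays, and 7.60, 7.76, 8.11 and 8.17 on WT arrays. Between me and WT Csf1r differed by 0.19 ± 0.20, or 0.26 ± 0.09 when array set was a block. With 1 array left out the unblocked difference ran from 0.08 (without WT 1) to 0.30 (without me 1), and the blocked one was 0.15 without me 3. Of its other probe sets one gave 0.29 ± 0.12 (unadjusted p = 0.0399) and the other 0.08 ± 0.08, and both were above background on 5 arrays. Itgam (the integrin chain CD11b) differed by 0.09 ± 0.15 and Adgre1 (F4/80) by 0.08 ± 0.13. Cd14 and Cd68, at background on every array, differed by 0.01 ± 0.11 and 0.02 ± 0.08.

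Ms4a7, a membrane protein of the CD20 family found on macrophages, ran the other way. It had 7.76, 7.69 and 7.68 on me arrays, 7.81, 7.74 and 7.95 on he arrays, and 7.76, 7.86, 7.83 and 7.85 on WT arrays. It was the 1 gene with every me array below every WT array, where 0.835% of all probe sets were, although me 1 and WT 1 are equal at 2 decimals. The Ms4a7 difference was -0.12 ± 0.07 and did not pass. Every me array lay above every WT array for 5 genes (S100a8, S100a9, Lcn2, Mmp8 and Cebpa), where 0.802% of all probe sets did. Of these, S100a8 and S100a9 exceeded background on me 3 alone, and Lcn2 and Mmp8 on no array. Relative to the background level of each array, me 2 lay below WT 3 for Lcn2 (-0.93 against -0.89) and Cebpa (-0.12 against -0.07). On that scale me 2 stayed above WT 3 and WT 4 for S100a8, S100a9 and Mmp8. Against he, 3 genes had every me array above (S100a8, Lcn2 and Ly86), where 1.61% did, and 1 below (Ltf), where 1.1% did. Between he and WT, 0 genes had every he array above every WT array, where 0.469% did, and 0 below, where 0.573% did.

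For several macrophage genes the gap between array sets exceeded that between genotypes. Mpeg1, the pore-forming perforin-2, had 8.12, 9.80 and 8.44 on me arrays, 8.18, 9.74 and 10.08 on he arrays, and 8.25, 8.45, 9.51 and 9.93 on WT arrays. Set B was higher by 1.53 on average, and me differed from WT by -0.25 ± 0.61 without and 0.00406 ± 0.14 with the block. Lyz2, the lysozyme of monocytes, macrophages and neutrophils, had 7.37, 9.42 and 8.32 on me arrays, 7.44, 8.38 and 9.06 on he arrays, and 7.53, 7.44, 8.42 and 8.46 on WT arrays. The highest arrays were me 2 and he 3, both of set B, while me 1 was the lowest of all. Its difference between me and WT was 0.41 ± 0.54, or 0.61 ± 0.24 with the block, and it was -0.12 without me 2.

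Msr1, the class A scavenger receptor, had 7.52, 8.27 and 7.90 on me arrays, 7.43, 8.44 and 8.67 on he arrays, and 7.59, 7.61, 8.44 and 8.37 on WT arrays. Set B was higher by 0.83 on average. The difference was -0.11 ± 0.35 without and 0.03 ± 0.12 with the block. Its other probe sets differed by -0.11 ± 0.08, 0.01 ± 0.11 and -0.08 ± 0.17, and were above background on 4, 0 and 0 arrays. Mrc1 had 7.19, 7.73 and 7.35 on me arrays, 7.07, 7.60 and 7.67 on he arrays, and 7.10, 7.15, 7.96 and 7.83 on WT arrays, all at background and higher in set B. It differed by -0.08 ± 0.26 between me and WT, and Marco by 0.03 ± 0.10.

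The 3 chains of complement C1q, which macrophages make as 1 complex, had different patterns across arrays. C1qa had 7.19, 8.31 and 7.46 on me arrays, 7.19, 8.28 and 8.34 on he arrays, and 7.26, 7.33, 8.39 and 8.29 on WT arrays. It was higher in set B by 1.04 on average, while C1qb was lower there by 0.11 and C1qc by 0.07. C1qc was above background on no array. Between me and WT the chains differed by -0.16 ± 0.42, 0.00497 ± 0.07 and 0.01 ± 0.06. When array set was a block the C1qa difference was 0.01 ± 0.07.

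In all, 9 of 39 genes had every set B array above every set A array (Ngp, Elane, Cxcr2, Tyrobp, Mpeg1, Lyz2, C1qa, Mrc1 and Msr1), where 21% of all probe sets did, and 6 had every set B array below, where 30.4% did. Because the sets were made from the same values, these counts are a description. On 7 of the 9 genes me 3 was the highest array of set A.

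**Figure D4:**
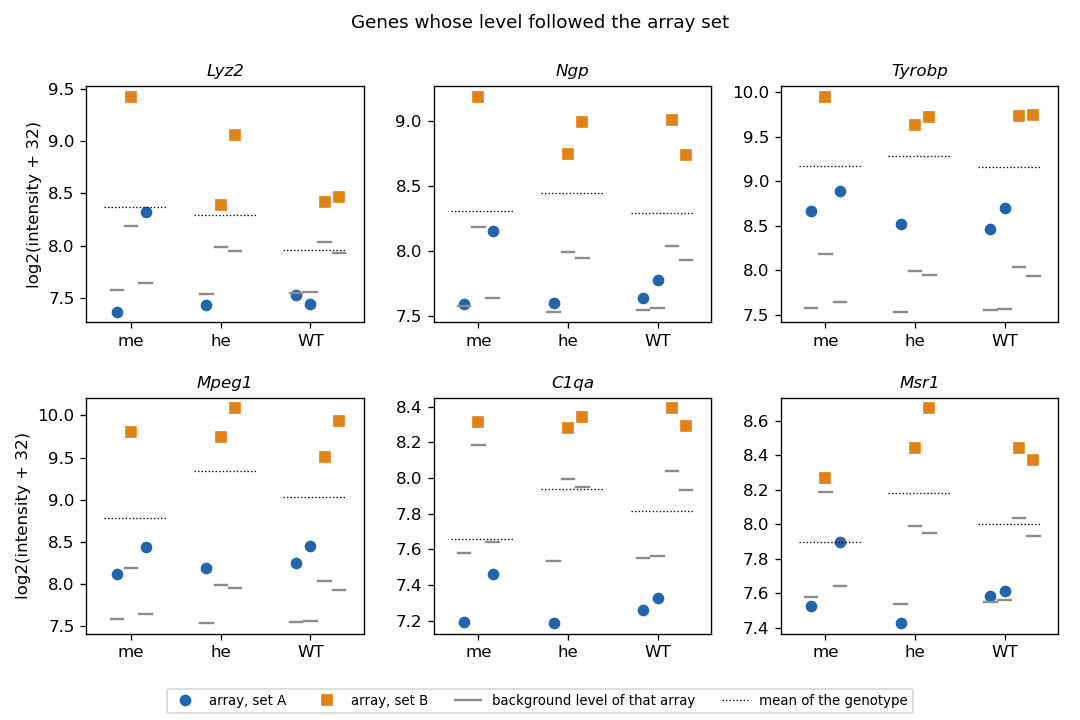
Each point is 1 array, with log2(intensity + 32) on the vertical axis and me, he and WT from left to right; circles are set A and squares set B, grey ticks are the background level of that array, and dotted lines are genotype means. In every panel the squares lie above the circles in each genotype, and me 2 and he 3 are the highest arrays for Lyz2.

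The secreted proteins gave small values. Ccl6, a chemokine of myeloid cells, had 7.43, 7.38 and 7.53 on me arrays, 7.50, 7.37 and 7.37 on he arrays, and 7.33, 7.45, 7.27 and 7.32 on WT arrays. The genotypes overlapped, and me differed from WT by 0.10 ± 0.07. Apoe differed by -0.0010 ± 0.10, with a 95% interval of -0.22 to 0.22. No array of either gene reached its background level.

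Of the lineage transcription factors, Cebpa had the smallest p between me and WT. It drives the step from progenitor to granulocyte and monocyte precursor. Cebpa had 8.25, 8.06 and 8.28 on me arrays, 7.84, 8.08 and 7.97 on he arrays, and 7.73, 7.88, 7.97 and 8.03 on WT arrays. Every me array was above every WT array, although me 2 exceeded WT 4 only narrowly and lay under its own background level. The me minus WT difference was 0.29 ± 0.10 (adjusted p = 1 in limma), with 0.45 in set A and 0.06 in set B, where me has the single array me 2. In he it was 0.06 ± 0.10.

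Cebpb, which cytokines induce in many cell types, T cells included, had 9.03, 8.60 and 8.75 on me arrays, 9.18, 8.32 and 7.77 on he arrays, and 9.11, 9.18, 8.22 and 8.18 on WT arrays. It was higher in set A in every genotype, and me differed from WT by 0.13 ± 0.37, or -0.00998 ± 0.18 with the block. Spi1 had 7.58, 7.26 and 7.52 on me arrays, 7.50, 7.25 and 7.51 on he arrays, and 7.49, 7.61, 7.26 and 7.29 on WT arrays. Its difference was 0.04 ± 0.12, with a 95% interval of -0.23 to 0.31.

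A second list of 45 measured myeloid genes outside these markers gave 0 called genes between me and WT, against the same 0% of all probe sets, and 0 when array set was a block. Of these 45, 10 were above background on all arrays and 16 on none. The mean was higher in me for 39, where 49.9% of all probe sets were, with a median difference of 0.05. When array set was a block 30 of 45 were higher, where 46.3% of all probe sets were, with a median of 0.04. Without a block, 1 was higher in me at an unadjusted p under 0.05, against 0.331% of all probe sets, and 0 were lower, against 0.295%. That gene was Plac8, which myeloid cells, B cells and some T cells use, with a difference of 0.68 ± 0.25. Alox5ap, which helps make leukotrienes, differed by 0.21 ± 0.09 and Ctss, the protease cathepsin S, by 0.15 ± 0.11. With array set as a block, Cybb, Anxa1, Alox5ap, Clec7a and Ncf1 were among those higher in me at an unadjusted p under 0.05. The full blocked count of this list at that level is not given here. The summed level of the list was 17328 to 17795 on me, 16277 to 16466 on he and 15661 to 16496 on WT arrays, with every me array above every he and WT array. Without its 2 brightest genes, Ctss and Ctsb, the sum was 11047 to 12198 on me, 10573 to 11306 on he and 10432 to 11261 on WT arrays, and the ranges overlapped. For the lists of dendritic, basophil and mast, eosinophil, erythroid, platelet, and stromal and endothelial cells, 0 genes were called between me and WT.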

How the data were processed

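RNA was measured on 10 Affymetrix arrays. The authors deposited 1 intensity per probe set and array, which the values show to be linear; how probes were summarised and scaled is not given in the sources used here. Medians of the arrays ran from 147.7 to 187.9. Of 45101 probe sets 64 controls were left out. GEO's platform annotation gave a single gene to 34945 probe sets, more than 1 to 932 and no gene to 9160, and only the first kind was used for names; the brightest probe set by mean stood for a gene. Values were taken as log2(intensity + 32) and quantile normalised. Groups were compared on all 10 arrays by lmFit and eBayes of limma 3.58.1 (R 4.3.3), leaving 7 residual degrees of freedom; p-values were adjusted by Benjamini-Hochberg over 45037 probe sets, with a threshold of 0.05. The number of arrays limits the precision. The procedure was tested on simulated data. Members, lists and the block by array set were chosen with earlier results of these data known. The naming rule gives every array for genes above background on all arrays of a genotype, and the 4 smallest p among those at background; S100a8, S100a9, Ly86, Mpo, Ms4a7, Lyz2, C1qa and Spi1 were added after their values were seen. Of the other lists up to 3 genes with the smallest p were named, and Cybb, Anxa1, Clec7a and Ncf1 were added after their blocked values were seen. Replicate numbers are shared between genotypes, and same-numbered arrays did not all deviate together (correlation of deviations -0.873 to 0.941), so no pairing was used. Alternatives were other normalisations and pseudocounts, a filter, blocks, each set alone, 2 groups alone, another prior, all probe sets of a gene, other thresholds and each array left out. Counts at an unadjusted p, me 3 counted in set B, values within sex and sums without the brightest genes were added after seeing the data. Promoter sequences are RefSeq's, in GRCm38.p6; both genes printed were found there.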

Additional observations from a re-analysis of the deposited data

How the results depend on the processing

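At the threshold of 0.05 no marker gene was called in any of the 3 comparisons under any setting run, nor at 0.1 or 0.01 in the fit on all arrays without a block; at 0.1, S100a8 would pass for me against WT with the block by set and without me 1 (adjusted p 0.0727). Over all probe sets, array set as a block called 3 for me against WT; leaving out 1 array gave 0 to 2 for me against WT and 0 to 2 between me and he, with 2 in each without me 2. With the number as a replicate block, 0 genes were called and 4 were higher in me than in WT at an unadjusted p under 0.05, as without it; the same numbers share only a number, since replicate 2 of me and WT deviated in opposite ways (-0.873). The filter on low values kept 20 of 39 genes, so its counts fall by construction: 14 were higher in me than in WT, 15 in he than in WT and 11 in me than in he, 2 and 1 were higher in me at an unadjusted p under 0.05 against WT and he, and 1 lay above every WT (0.662% of all probe sets kept) and 1 above every he array (1.28%). Set A alone had 13 genes higher in he than in WT, and leaving out 1 array gave 11 to 25, against 24 to 30 for me against WT and 22 to 33 for me against he. Genes with me above every WT array numbered 3 with no normalisation (0.631% of all probe sets), and, where fewer arrays are compared, 12 within set A (12.3%), 23 within set B (29.4%), and 5 to 8 with 1 array left out. Genes with he above every WT array numbered 1 with no normalisation (0.377%), median centring (0.155%) or the mean of all probe sets (0.335% of genes), 8 in set A (28.1%), 11 in set B (12.3%) and 0 to 7 with 1 array left out. Genes with me above every he array numbered 6 with median centring (0.937%), 25 in set A (29.3%), 21 in set B (26.3%) and 3 to 10 with 1 array left out. With the block by set, 10 genes were higher in me than in WT at an unadjusted p under 0.05 (1.64% of all probe sets). Between me and he 7 were higher (1.69%). Set B alone gave 1 for he against WT, and 2 groups alone gave 2 for me against he. Set B holds the single me array me 2, so no such count is given there for me against WT. Leaving out 1 array without the block gave 2 to 5 for me against WT and 3 to 4 for me against he. For he against WT it gave 0 to 1. With the block these were 7 to 12, 4 to 10 and 0 to 1. Counting me 3 in set B gave 5 for me against WT. Shares over all probe sets are not given with 1 array left out or me 3 moved. For counts of higher genes, with or without a p, they are also missing for the filter, the replicate block, each set alone and 2 groups alone. Counts without a share are not read as results about the marker genes. Above background on every me array lay 13 genes with the 90th percentile as the level, 2 with the 99th and 7 to 17 with 1 array left out, the most without me 2. The 99th percentile left 2 on every he and 2 on every WT array, and 1 array left out gave 6 to 9 and 7 to 8. Non-overlap and background counts do not depend on the block, the prior or the threshold, so they have no value there. The cause of the other shifts was not tested. Of the differences of single genes under other settings, 2400 stayed within the spread over arrays, 117 moved by more, and none of them had been called. By Dixon's test no WT array stood apart from the other 3 at any of the 39 genes. The WT arrays fall in pairs into the sets (WT 1 and WT 2, WT 3 and WT 4). A test for 1 array apart cannot show such a split, so its result does not show that the WT arrays are alike.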
